A study of Capra hircus with 3 samples.

Results

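Integrins are paired cell-surface receptors, 1 alpha and 1 beta chain each, and laminins are the 3-chained ligands of the basement membrane that many of them bind. The family described here was taken by symbol alone: every row of the deposited table whose gene symbol begins with ITGA, ITGB, LAMA, LAMB or LAMC followed by a chain number or letter. The rule found 33 of the 16739 genes in the table, made up of 14 integrin alpha chains, 7 integrin beta chains, ITGBL1, 4 laminin alpha chains, 4 laminin beta chains and 3 laminin gamma chains. ITGBL1 is a secreted protein related to the beta chains, not a receptor subunit. The rule itself uses no measured value, although it was set with earlier results of these data known.

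The cells came from the back skin of fetuses of the Northern Shaanxi White Cashmere Goat, a breed of Capra hircus kept for the fine fibre of its secondary hair follicles. Single-cell RNA libraries were made at embryonic day 60 (E60, when follicles are induced), day 90 (E90, when they take shape) and day 120 (E120, when their cell layers mature), 1 library for each stage. E60 and E90 were whole skin loosened with collagenase IV and a pipette, whereas at E120 hair follicles were picked with forceps out of collagenase-treated skin and then taken apart with the enzyme mix the labels call TypLE Express. Each library pooled the cells of at least 2 fetuses before barcoding, so no value has a replicate and no test between stages or cell classes was possible. Stage and dissociation cannot be told apart wherever E120 is compared with an earlier stage.

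As background, laminins are secreted as a trimer of 1 alpha, 1 beta and 1 gamma chain and polymerise into the sheet that separates epithelium, vessels, muscle and nerve from the surrounding matrix. In skin, LAMA3 and LAMB3 are known as chains of the laminin that anchors basal keratinocytes through the integrin of ITGA6 and ITGB4, while LAMA2 is the laminin chain of muscle and nerve and LAMA4 that of blood vessels. ITGB1 pairs with the largest number of alpha chains, among them the laminin receptors ITGA3, ITGA6 and ITGA7 and the collagen receptors ITGA1 and ITGA2.

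The libraries held 6849 cells at E60, 6931 at E90 and 6896 at E120, with median depths of 8579, 3714 and 13064 unique molecules (UMIs) per cell. Cells were clustered without the 33 genes and clusters were named from marker lists, so names such as mural-like describe marker content. Of 37 clusters, 33 drew over 90% of their cells from 1 library. At E90, 3922 cells (56.6%) stayed unnamed, and the 220 erythroid-like cells of that library carried 3954 UMIs per 1000000 (CPM) of epithelial markers and 3219 CPM of dermal markers beside 67779 CPM of erythroid markers. E90 levels are therefore set beside those of the erythroid-like cells, whose markers of other cell types may come from free RNA or from mixed cells, which was not tested. This reference depends on the clustering, since E90 held 16 erythroid-like cells at Leiden resolution 0.5, 268 at resolution 2 and 0 once high doublet scores were removed. In all 33 genes the interval of the erythroid-like cells overlapped that of the unnamed cells, which were taken as a second reference after the data were seen. The unnamed cells carried 4482 CPM of epithelial and 3502 CPM of dermal markers, so they are not free of either class. They depend on the clustering too: at resolution 0.5 no E90 cell stayed unnamed, and 6051 cells were epithelial-like against 1905 in the main setting. Some members, such as ITGA4 and ITGB1, are known from erythroid precursors too. At E120 the hair shaft and inner root sheath marker list reached 22436 CPM in epithelial-like cells, and the mesenchymal-like, endothelial-like, mural-like and mast-like classes carried between 1859 and 5467 CPM of it.

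Levels below are CPM, the UMIs of a gene summed over all cells of a class and scaled to the UMI total of that class, and the range in parentheses after a level is its exact 95% Poisson interval, which covers counting error only. Because the kit reads transcript ends at the 3′ side, levels are compared for 1 gene across classes and never between genes. Fewer expressing cells and less RNA per cell cannot be told apart in such sums. A difference is called here when the higher side has at least 20 CPM and the ratio of CPM + 1 is at least 2-fold, and log2 ratios are on that CPM + 1 scale, which understates the change of low levels.

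Of the 33 genes, 18 reached 50 CPM in at least 1 class of at least 50 cells: 9 integrin alpha chains, 3 integrin beta chains, ITGBL1, 2 laminin alpha chains, 2 laminin beta chains and 1 laminin gamma chain. At E60 the class with the highest level was glial-like for 6 of the 17 members that reached 20 CPM, mural-like for 4, myeloid-like for 3, and endothelial-like and mesenchymal-like for 2 each. At E120 it was mural-like for 10 of 19 such members, mast-like for 4, mesenchymal-like for 3, and endothelial-like and epithelial-like for 1 each. At E90 it was mesenchymal-like for 8 of 17, endothelial-like for 4, mast-like for 3 and epithelial-like for 2. Of those E90 levels, ITGA10 at 29.2 CPM and LAMA3 at 22.1 CPM in epithelial-like, ITGA2 at 30.7 CPM in mast-like and ITGB5 at 81.5 CPM in mesenchymal-like cells overlapped the erythroid-like level of the same gene. The erythroid-like and melanocyte-like cells of E90 were left out of this ranking, and ITGB5 was higher in erythroid-like cells, at 88.1 CPM. Highest classes were not counted over all genes, and the classes of at least 50 cells differ between libraries. Levels of small classes, such as 60 glial-like cells at E60 and 67 mural-like cells at E120, carry more counting error. Some first places overlap the next class, as for LAMB1 and LAMC1 in E120 mural-like cells.

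**Figure D1:**
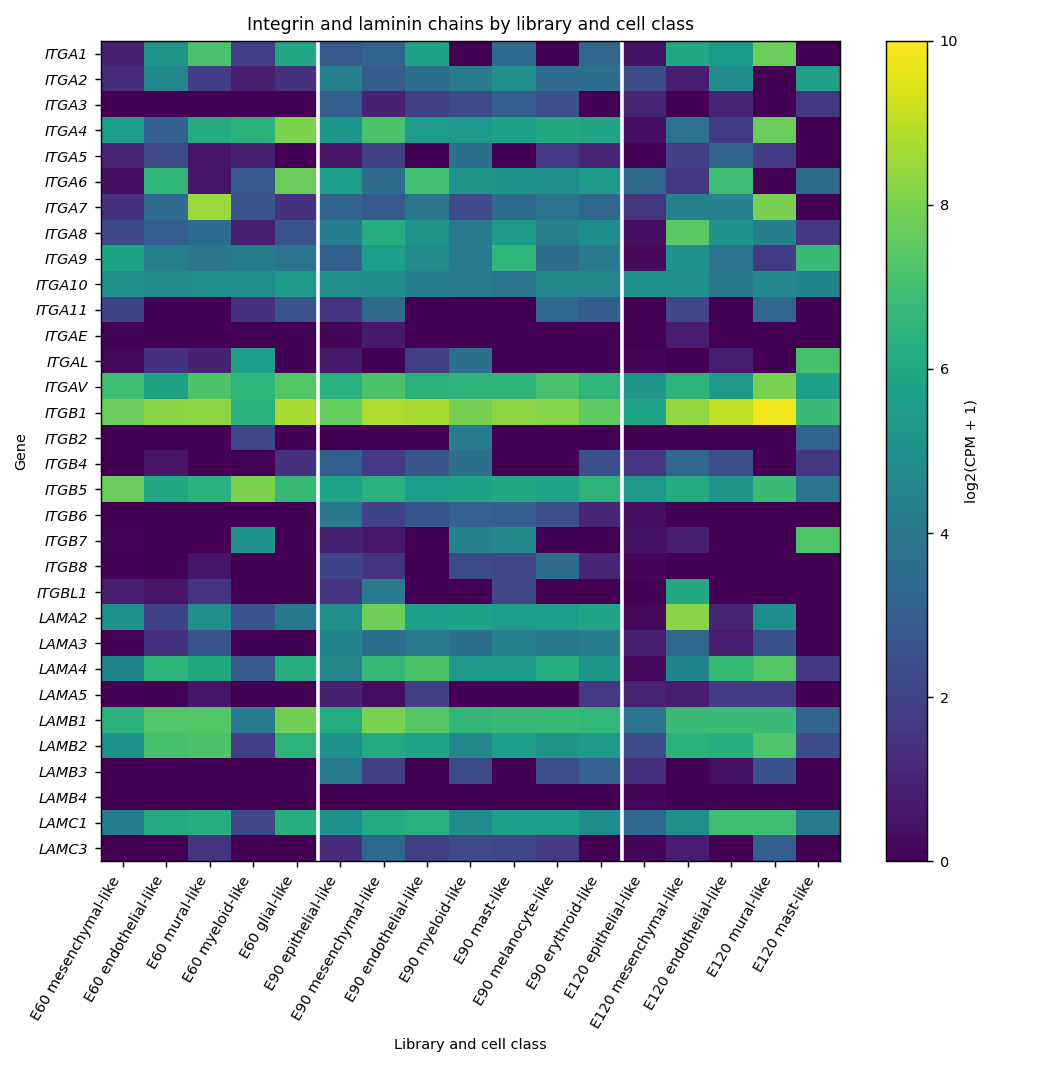
Level of 32 of the 33 genes (rows) as log2(CPM + 1), shown by colour, in each cell class of at least 50 cells of each library (columns, grouped by stage). ITGA7 stands out in mural-like cells (358 CPM at E60), ITGAL and ITGB7 in E120 mast-like cells (135 and 153 CPM) and LAMA2 and ITGA8 in E120 mesenchymal-like cells (302 and 173 CPM), while the rows of LAMA5, ITGAE and LAMB4 stay dark (low) throughout.

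The shared beta chain ITGB1 was present in every class of every library. At E60 its level was 413 CPM (363 to 469) in glial-like cells, 303 CPM (279.8 to 327) in mural-like, 298 CPM (276 to 321) in endothelial-like, 212 CPM (209 to 216) in mesenchymal-like and 86.0 CPM (70.0 to 105) in myeloid-like cells. At E120 the order ran from 874 CPM (787 to 968) in mural-like through 519.5 CPM (493 to 547) in endothelial-like, 335 CPM (306 to 366) in mesenchymal-like and 113 CPM (85.0 to 146) in mast-like cells to 59.3 CPM (57.7 to 60.9) in epithelial-like cells. Neighbours in the E60 order overlapped only for mural-like against endothelial-like cells, and no neighbours overlapped at E120. At E90, levels of 431 CPM (409 to 454) in mesenchymal-like and 413 CPM (350.0 to 484) in endothelial-like cells stood above the 183 CPM (156 to 213) of erythroid-like cells, whereas the 196 CPM (187 to 205) of epithelial-like cells overlapped that level.

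ITGB1 UMIs were found in 97.0% of E120 mural-like cells and 48.7% of E120 epithelial-like cells at median depths of 5361 and 13989 UMIs, and in 77.6% and 12.3% once each cell was thinned to 2000 UMIs, a depth that every cell reached. The epithelial-like class thus held the lowest ITGB1 level of the E120 library while its cells were the deepest.

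Of the alpha chains, ITGA7, the laminin-binding partner of ITGB1 best known from muscle, marked mural-like cells, the pericytes and smooth muscle of vessel walls. At E60 it reached 358 CPM (333 to 384) in mural-like cells against 1.66 CPM (1.34 to 2.04) in mesenchymal-like cells, a log2 ratio of 7.07. At E120 it reached 245 CPM (200.2 to 297) in mural-like cells, 20.6 CPM (13.9 to 29.4) in mesenchymal-like cells and 2.02 CPM in epithelial-like cells. ITGA7 UMIs were seen in 87.4% of E60 mural-like cells and in 1.35% of E60 mesenchymal-like cells, at median depths of 8518 and 8562.5 UMIs, and in 40.8% and 0.217% after thinning. Both libraries thus gave ITGA7 a high level in the mural-like class, whose cells fell into 1 cluster shared by E60 and E120. The E60 mural-like class also carried 343 CPM of skeletal muscle markers (7 of 8 genes seen, MYF5 at 0), and a small E60 muscle cluster of 47 cells had ITGA7 at 226 CPM (184 to 275). The part of muscle RNA in the E60 mural-like level was not tested. At E90, where no mural-like class reached 50 cells, ITGA7 lay between 3.95 and 13.6 CPM in all classes.

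ITGA1, the collagen-binding partner of ITGB1, had a wider vascular pattern. At E60, mural-like cells held 141 CPM (125 to 157), glial-like cells 62.0 CPM (43.4 to 85.8), endothelial-like cells 35.1 CPM (27.9 to 43.6) and mesenchymal-like cells 0.894 CPM (0.663 to 1.18) of it. At E120, mural-like cells held 212 CPM (171 to 261), mesenchymal-like cells 64.4 CPM (52.1 to 78.9), endothelial-like cells 42.9 CPM (35.6 to 51.1) and epithelial-like cells 0.421 CPM. Mural-like cells were first in both orders, and the mesenchymal-like class moved from last place among these classes at E60 to the second at E120. At E90 the endothelial-like level of 54.4 CPM (33.2 to 83.9) exceeded the 8.92 CPM of erythroid-like cells.

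ITGA6, the laminin receptor chain that pairs with ITGB1 or ITGB4, was endothelial and glial rather than mesenchymal at E60. It stood at 217 CPM (181 to 258) in glial-like cells, 93.8 CPM (81.8 to 107) in endothelial-like cells, and only 0.322 CPM (0.191 to 0.509) in mesenchymal-like cells. Among E60 cells, 81.7% of glial-like, 65.5% of endothelial-like and 0.284% of mesenchymal-like cells had an ITGA6 UMI, at median depths of 8826, 16016 and 8562.5 UMIs, or 41.7%, 18.7% and 0.0668% after thinning. Endothelial-like cells kept a similar level in the later libraries, of 128 CPM (93.9 to 169.9) for E90 and 118 CPM (106 to 132) for E120, and these intervals overlapped. Epithelial-like cells had 47.9 CPM (43.5 to 52.6) at E90, which overlapped the erythroid-like 40.2 CPM (28.1 to 55.6) but not the 35.4 CPM (32.5 to 38.5) of unnamed cells, and 9.97 CPM (9.32 to 10.7) at E120.

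ITGA4, the chain that binds VCAM1 and fibronectin and is known from neural crest and leukocytes, was highest in glial-like cells at E60 and in mural-like cells at E120. E60 levels were 258 CPM (219 to 303) in glial-like, 84.3 CPM (68.4 to 103) in myeloid-like, 70.8 CPM (59.9 to 83.0) in mural-like, 45.9 CPM (44.1 to 47.7) in mesenchymal-like and 7.71 CPM in endothelial-like cells. E120 levels were 212 CPM (171 to 261) in mural-like, 12.3 CPM (7.31 to 19.5) in mesenchymal-like, with endothelial-like cells at 2.44 CPM, epithelial-like cells at 0.318 CPM and no UMI in mast-like cells. In mesenchymal-like cells the highest of the 3 stages was E90, with 142 CPM (129 to 156) against an erythroid-like level of 60.2 CPM (45.2 to 78.6).

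**Figure D2:**
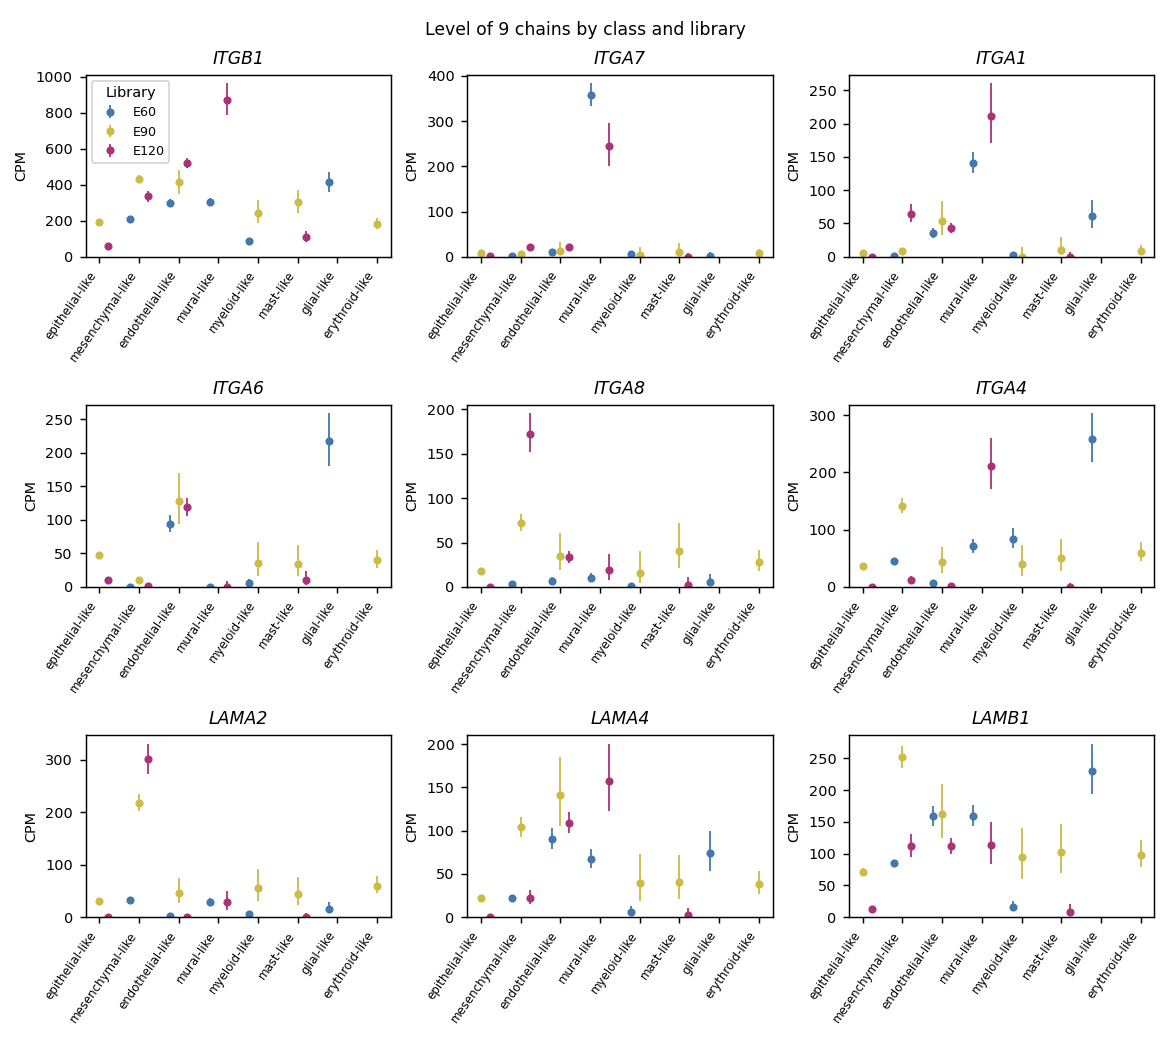
Level in CPM (vertical axis, from 0) of 9 chains by cell class (horizontal axis), with bars for the exact 95% Poisson interval and colour for the library. ITGA7 stands at 358 CPM and 245 CPM in the mural-like classes of E60 and E120, and LAMA2 stands at 32.1, 218 and 302 CPM in the mesenchymal-like classes of the 3 stages.

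ITGA8, the chain that binds RGD ligands such as nephronectin, differed between the 3 stages in mesenchymal-like cells. The E60 level was 3.65 CPM (3.16 to 4.18), the E90 level 72.3 CPM (63.3 to 82.1) and the E120 level 173 CPM (152 to 195), and no intervals overlapped. The E90 level lay above the erythroid-like 27.9 CPM (18.0 to 41.2). The 3 values come from different clusters. E60 mesenchymal-like cells formed 7 clusters, E90 cells 1 cluster led by BMP3 and SPON1, and 209 of the 218 E120 cells 1 papilla-like cluster with FGF7, APOD and RSPO2 among its leading genes. ITGA8 UMIs occurred in 59.2% of E120 mesenchymal-like cells and 0.458% of E120 epithelial-like cells, at median depths of 5508 and 13989 UMIs, or in 27.5% and 0.0818% after thinning.

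ITGBL1, the secreted relative of the beta chains, followed the same stage order, and mesenchymal-like cells had 0.769 CPM (0.556 to 1.04) in the E60 library, 16.0 CPM (11.9 to 21.0) in the E90 library and 65.1 CPM (52.7 to 79.6) in the E120 library. At E120 it had no UMI in endothelial-like, mural-like or mast-like cells, and 0.0682 CPM in epithelial-like cells. Set against a floor of 3 counts in the class, mesenchymal-like cells were at least 62.3-fold higher than endothelial-like cells and at least 9.21-fold higher than mural-like cells.

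ITGAV and ITGB5, which pair as a vitronectin receptor, did not share a stage order. In mesenchymal-like cells ITGAV had an E60 level of 122 CPM (119 to 124), an E90 level of 141 CPM (129 to 155) and an E120 level of 87.1 CPM (72.6 to 104). ITGB5 in the same cells was at 214 CPM (211 to 218) at E60 and at 81.5 CPM (72.0 to 91.9) at E90, the latter within the interval of the erythroid-like 88.1 CPM. Its E120 level was 69.2 CPM (56.4 to 84.1), which overlapped that of E90. ITGAV thus varied by less than 2-fold over the 3 stages, whereas ITGB5 was higher at E60 than at either later stage.

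ITGA9, a receptor chain for tenascin and VCAM1, reached 55.1 CPM (53.1 to 57.0) in E60 mesenchymal-like cells against 13.8 to 19.7 CPM in the other named E60 classes. In the later libraries its highest level was in mast-like cells, which held 95.6 CPM (63.6 to 138) in E90 and 108 CPM (81.5 to 142) in E120, against 46.1 CPM (39.0 to 54.1) and 31.5 CPM (23.1 to 42.1) in mesenchymal-like cells. The mast-like cells of both libraries fell into 1 cluster.

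The leukocyte chains were found in immune classes, at levels that differed between libraries. ITGAL, the alpha chain of the leukocyte receptor for ICAM1, was at 46.5 CPM (34.9 to 60.6) in E60 myeloid-like cells and 0.161 CPM in E60 mesenchymal-like cells. At E120 it was at 135 CPM (104 to 171) in mast-like cells and had no UMI in mesenchymal-like cells, which makes the mast-like level at least 65.5-fold higher. At E90 ITGAL had no UMI in the 76 mast-like cells, which allows up to 12.6 CPM, and 3 UMIs in myeloid-like cells. ITGB7, the beta chain that pairs with ITGA4 or ITGAE in lymphoid homing and in mast cell precursors, was at 32.7 CPM (23.1 to 44.9) in E60 myeloid-like and 153 CPM (120.3 to 191) in E120 mast-like cells, against 23.9 CPM (9.61 to 49.3) in E90 mast-like cells. ITGB7 UMIs were found in 49.5% of E120 mast-like cells and 0.572% of E120 epithelial-like cells at median depths of 3751 and 13989 UMIs, or in 28.3% and 0.114% after thinning. ITGB2, the usual partner of ITGAL, was nearly unseen, with 4, 4 and 6 UMIs in the E60, E90 and E120 libraries, and all 4 of the E90 library lay in myeloid-like cells.

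The E60 myeloid-like class was itself uneven. Its 2 clusters, of 48 and 70 cells, had ITGAL at 105 CPM (77.6 to 139) and 8.50 CPM, and ITGA4 at 184 CPM (147 to 228) and 19.8 CPM. ITGB5 ran the other way, at 43.8 CPM in the first and 405 CPM (359 to 455) in the second. The class value of ITGB5, 263 CPM (235 to 294), therefore came mostly from the second cluster. ITGA2, a collagen receptor chain, was at 52.2 CPM (34.1 to 76.5) in mast-like cells of E120, against 27.5 CPM (21.8 to 34.3) in its endothelial-like and 4.24 CPM in its epithelial-like cells.

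Among the laminin chains, LAMA2 was mesenchymal. Mesenchymal-like cells of E60 held 32.1 CPM (30.7 to 33.6), those of E90 held 218 CPM (202 to 235) and those of E120 held 302 CPM (274 to 331), against an E90 erythroid-like level of 60.2 CPM (45.2 to 78.6). At E120 the other classes were far lower, since mural-like cells had 28.3 CPM, endothelial-like cells 1.05 CPM, epithelial-like cells 0.17 CPM and mast-like cells no UMI. LAMA2 UMIs were present in 78.0% of E120 mesenchymal-like cells and 0.245% of E120 epithelial-like cells, at median depths of 5508 and 13989 UMIs, or in 40.4% and 0.0491% after thinning. At E60 the gap was narrower, since mural-like cells had 29.1 CPM, close to the mesenchymal-like level.

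LAMA4, the alpha chain of vascular laminin, had its E60 levels in the order endothelial-like at 90.0 CPM (78.2 to 103), glial-like at 74.1 CPM, mural-like at 67.0 CPM (56.5 to 78.9), mesenchymal-like at 22 CPM (20.8 to 23.3) and myeloid-like at 6.02 CPM. Both vascular classes stood apart from mesenchyme, while their own intervals overlapped. At E120 the mural-like level was 158 CPM (122 to 200.5) and the endothelial-like level 109 CPM (97.3 to 122), against 21.9 CPM (15 to 31.0) in mesenchymal-like and 0.193 CPM in epithelial-like cells. At E90, mesenchymal-like cells reached 104 CPM (93.2 to 116), overlapping the endothelial-like 141 CPM (106 to 185), and both exceeded the erythroid-like 37.9 CPM (26.3 to 53.0).

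The beta and gamma chains that can join LAMA2 or LAMA4 were lower in E60 myeloid-like and in E120 mast-like and epithelial-like cells than in the vascular classes of the same library. LAMB1 at E60 was at 231 CPM (193 to 273) in glial-like, 159 CPM (143 to 177) in mural-like, 159 CPM (143 to 176) in endothelial-like, 85.4 CPM (83.0 to 87.9) in mesenchymal-like and 16.3 CPM in myeloid-like cells. At E120 it could not be ordered among stromal classes, with 113 CPM (83.4 to 149.9) in mural-like, 112 CPM (95.2 to 130.3) in mesenchymal-like and 112 CPM (99.6 to 124) in endothelial-like cells, all above 13.0 CPM in epithelial-like cells. LAMB2 separated vessels from mesenchyme at E60, with 145 CPM (129 to 162) in mural-like, 135 CPM (120.5 to 151) in endothelial-like and 32.8 CPM in mesenchymal-like cells. LAMC1, the common gamma chain, did likewise at 78.2 CPM (66.8 to 91.1), 70.3 CPM (59.9 to 81.9) and 18.3 CPM in the same order. At E120 LAMC1 was at 123 CPM (91.5 to 161) in mural-like, 120.2 CPM (108 to 134) in endothelial-like, 30.8 CPM (22.5 to 41.3) in mesenchymal-like and 9.30 CPM in epithelial-like cells.

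LAMA3 and LAMB3, alpha and beta chains of epithelial anchoring laminin, stayed under 50 CPM everywhere. In E90 epithelial-like cells they were at 22.1 CPM (19.2 to 25.3) and 16.7 CPM (14.2 to 19.5), and in E90 erythroid-like cells at 17.8 CPM (10.2 to 29.0) and 7.81 CPM (3.14 to 16.1). Both pairs of intervals overlapped, whereas the unnamed E90 cells were lower than epithelial-like cells for both, at 14.1 CPM (12.3 to 16.1) and 9.41 CPM (7.94 to 11.1). In E120 epithelial-like cells as a whole they were at 0.830 and 1.65 CPM, and the E60 library, which held 3 epithelial-like cells, had 21 and 0 UMIs. Class totals thus gave little of these chains, and the E120 clusters below show where their UMIs lay.

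Between classes of the E60 library, ITGA1, LAMA4, LAMB2 and LAMC1 were higher in endothelial-like, mural-like and glial-like cells than in mesenchymal-like cells. Mural-like cells had 5 members higher (1.8% of all genes were called higher) and 2 lower (1.12%): ITGA7, ITGA1, LAMB2, LAMC1 and LAMA4 were higher, with log2 ratios of 7.07, 6.22, 2.11, 2.04 and 1.56, and ITGA9 and ITGB5 lower. Endothelial-like cells had 6 higher (4.41%) and 5 lower (3.26%), with ITGA6 at a log2 ratio of 6.16, ITGA1 at 4.25 and ITGA2 at 3.33 among the higher and LAMA2 at -3.05 and ITGA4 at -2.43 among the lower. Glial-like cells had 7 higher (3.44%) and 3 lower (2.18%), led by ITGA6 at 7.37 and ITGA1 at 5.06. Myeloid-like cells had 2 higher (4.16%), ITGAL at 5.35 and ITGB7 at 4.90, and 6 lower (4.37%), of which 4 were laminin chains. These comparisons share the mesenchymal-like cells. In every comparison made, members reached the 20 CPM of the call rule more often than all genes did. For mural-like cells here, 39.4% of members and 24.0% of all genes reached it. The shares of all genes given in parentheses are therefore a low yardstick for counts of members. The E60 mural-like class carried 9388 CPM of dermal markers (13150 CPM in mesenchymal-like cells), every gene of the list but TWIST2, and the E60 endothelial-like class carried 4638 CPM of lymphatic markers. Their part in these ratios was not tested.

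Within the E120 library, mural-like cells had 7 members above mesenchymal-like cells (3.79%), from ITGA4 at a log2 ratio of 4.0 and ITGA7 at 3.51 to ITGB1 at 1.38, and 4 below (4.05%): ITGA8, ITGA9, ITGBL1 and LAMA2. Endothelial-like cells had 4 above (3.91%), ITGA6 at 5.29, ITGA2 at 4.08, LAMA4 at 2.26 and LAMC1 at 1.93, and 5 below (4.65%), with LAMA2 at -7.21. The lower call of ITGA9 there reversed to 0.30 when cells were classed by their own marker counts. Mast-like cells had 4 above (5.34%), ITGAL, ITGB7, ITGA2 and ITGA9, and 10 below (7.35%). Epithelial-like cells had none above (3.48%) and 12 below (7.98%), with LAMA2 at -8.01, ITGA8 at -7.04 and ITGB1 at -2.48. The number below was 9 with median-of-ratios scaling and 7 when cells were classed by their own marker counts. Against endothelial-like cells the epithelial-like class had 1 above (2.99%), ITGA10 at 1.06, and 10 below (7.15%). That count above is near the share of all genes, and the ITGA10 call was lost with equal weight per cell or a pseudocount of 10 CPM. The median log2 ratio of epithelial-like over mesenchymal-like cells was -1.24 over the 33 members and 0 over all 16739 genes. In the E90 library the same comparison had 1 member above (2.43%), ITGA6 at 2.09, and 8 below (4.43%), or 3 above and 6 below with median-of-ratios scaling and none above and 5 below when cells were classed by their own marker counts.

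Across stages, mesenchymal-like cells had 8 members higher at E90 than at E60 (8.95%) and 1 lower (1.77%). The 8 were LAMA2, LAMA4, LAMC1, LAMB1 and LAMB2 among the laminins, with log2 ratios of 2.73, 2.19, 1.90, 1.55 and 1.02, and ITGA8, ITGA4 and ITGB1 among the integrins, at 3.98, 1.61 and 1.02, while ITGB5 was lower at -1.38. All 8 also lay above the E90 interval of the erythroid-like cells and that of the unnamed cells. That comparison sets E90 cells beside E90 cells only. Except for ITGB1, the erythroid-like E90 levels were themselves above the E60 mesenchymal-like levels, as for LAMA2 at 60.2 against 32.1 CPM. The part of RNA shared across the E90 library in these stage ratios was not tested. The median log2 ratio was 1.41 over the 33 members and 0.30 over all genes. Median-of-ratios scaling moves the ratios of this comparison down by about 0.86, which leaves ITGA8, LAMA2, LAMA4 and LAMC1 as the 4 higher calls beside 2 lower ones. Under it LAMB1 stood at a log2 ratio of 0.70 and LAMB2 at 0.18.

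From E90 to E120, the same cell class had 4 members higher (3.21%), ITGA1, ITGBL1, ITGA7 and ITGA8 at log2 ratios of 2.86, 1.96, 1.59 and 1.25, and 4 lower (5.27%), ITGA4, LAMA4, LAMC1 and LAMB1 at -3.42, -2.19, -1.17 and -1.16. LAMA2, at a log2 ratio of 0.47, was not called. From E60 to E120 it had 6 higher (6.11%) and 2 lower (2.5%), with ITGA8 and ITGBL1 both at 5.22, ITGA1 at 5.11, LAMA2 at 3.19, ITGA7 at 3.02 and LAMB2 at 1.33, and ITGA4 and ITGB5 lower at -1.81 and -1.62. Median-of-ratios scaling, a shift of 0.58, gave 4 higher and 4 lower, and LAMB2 was at -0.19 when cells were classed by their own marker counts. The 3 stage comparisons share libraries with one another, and each E120 value is a value of papilla-like cells.

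**Figure D3:**
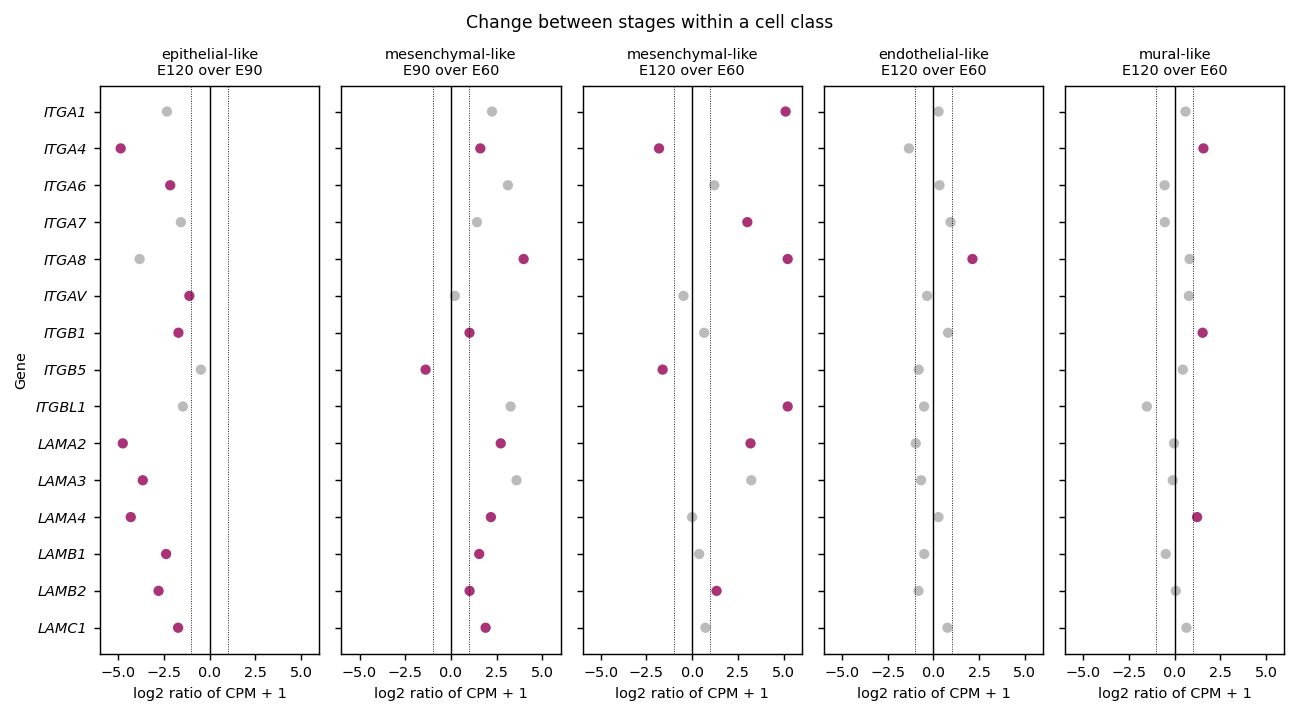
Log2 ratio of CPM + 1 between stages (horizontal axis) for 15 members (vertical axis), in 1 panel per comparison, with coloured points past the call rule, grey points not past it and dotted lines at 2-fold in either direction. In mesenchymal-like cells 8 points lie past the call rule to the right from E60 to E90, and in epithelial-like cells 10 lie past it to the left from E90 to E120.

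Between the E60 and E120 libraries, endothelial-like cells had 1 member higher at E120 (3.92%), ITGA8 at a log2 ratio of 2.13 (6.85 CPM to 33.5 CPM), and none lower (2.19%), counts near those shares of all genes. Lymphatic markers summed to 4638 CPM in the E60 endothelial-like class and to 99.3 CPM, with PROX1 at 0, in the E120 class, and the part of that difference was not tested. Mural-like cells had 3 higher (5.06%), ITGA4 at 1.57, ITGB1 at 1.53 and LAMA4 at 1.22, and none lower (2.82%). Classed by their own marker counts instead, mural-like cells gave none higher and 4 lower, with ITGA4 at -0.27 and LAMA4 at -0.38, so these calls depend on how the cells were named.

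Epithelial-like cells had 10 members lower at E120 than at E90 (6.36%) and none higher (2.72%). The largest differences were ITGA4 at a log2 ratio of -4.87, LAMA2 at -4.75, LAMA4 at -4.31 and LAMA3 at -3.66, followed by LAMB2, LAMB1, ITGA6, LAMC1, ITGB1 and ITGAV between -2.79 and -1.11. None of these 10 E90 levels lay above the erythroid-like interval: 6 overlapped it and 4 were below it. Beside the unnamed E90 cells, ITGA6 and LAMA3 were above, 2 overlapped and 6 were below. ITGA3 and ITGB6 were the 2 members whose E90 epithelial-like level exceeded the erythroid-like interval, at 6.93 and 14.8 CPM. Median-of-ratios scaling, with a shift of -0.61, gave 7 lower calls in this stage comparison. LAMA4, LAMA3 and ITGAV were no longer called, at log2 ratios of -3.97, -3.22 and -0.51, the first 2 because they fell under 20 CPM. The E90 class held 5 epithelial-like clusters and the E120 class 10, with unlike shares of basal-like cells, as given below. The parts of free RNA and of this cluster makeup in these stage differences were not tested. Over whole libraries, 3 members were higher (4.93%) and 2 lower (2.41%) at E90 than at E60, none higher (3.08%) and 10 lower (6.15%) at E120 than at E90, and none higher (4.81%) and 9 lower (5.71%) at E120 than at E60. Epithelial-like cells numbered 3 of the E60 library, 1905 of E90 and 6114 of E120, so whole-library ratios also carry that change in makeup.

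Within the E120 epithelium, ITGB1, ITGA6, LAMA3 and LAMB3 had their highest level in 1 of 10 clusters, a basal or outer root sheath-like cluster of 392 cells led by SPP1 and KLK7. ITGB1 was at 180.5 CPM (164 to 198) there, 101 CPM (94.6 to 107) in the bud or matrix-like cluster led by SHH and DCN, and 20.8 CPM (17.6 to 24.3) in the cluster led by GPRC5D and KRTAP11-1. ITGA6 was at 71.6 CPM (61.5 to 83.0) in the basal-like cluster, between 21.0 and 25.7 CPM in 3 others, and at or under 2.42 CPM in the remaining 6. ITGB4, the hemidesmosome partner of ITGA6, was at 10.5 CPM (6.87 to 15.4) in the basal-like cluster and at 7.81 CPM, within that interval, in the cluster led by CNFN and KRT23. ITGA3 had 6.88 CPM in the basal-like cluster, where both chains of the hemidesmosome integrin were present.

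LAMA3 and LAMB3 followed the same cluster. LAMA3 was at 17.8 CPM (12.9 to 23.9) in basal-like cells and at most 1.61 CPM in any of the other 9 clusters. LAMB3 was at 15 CPM (10.5 to 20.6) there and next at 6.75 CPM in the cluster led by CNFN and KRT23. Class sums over 6114 epithelial-like cells hide these levels, since the basal-like cluster holds only 392 of them. LAMB1 had another order, at 36.7 CPM (33.0 to 40.8) in the bud or matrix-like cluster, 35.7 CPM in the cluster led by CNFN and KRT23, 23.9 CPM in basal-like cells and 0.938 CPM in the cluster led by GPRC5D and KRTAP11-1. At E90 the basal or outer root sheath-like cluster of 1198 cells and the suprabasal-like cluster of 370 cells had LAMA3 at 22.5 and 21.9 CPM but LAMB3 at 20.7 and 1.73 CPM, and ITGB6, the epithelial partner of ITGAV, at 17.5 and 4.04 CPM. The stage comparison of epithelial-like cells therefore set unlike mixes of clusters side by side. Between the basal-like clusters, the 22.5 CPM of LAMA3 at E90 lay within its E120 interval, although LAMA3 was called lower over whole classes. The 20.7 CPM of LAMB3 at E90 lay just above its E120 interval. The other called members were not compared between basal-like clusters.

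**Figure D4:**
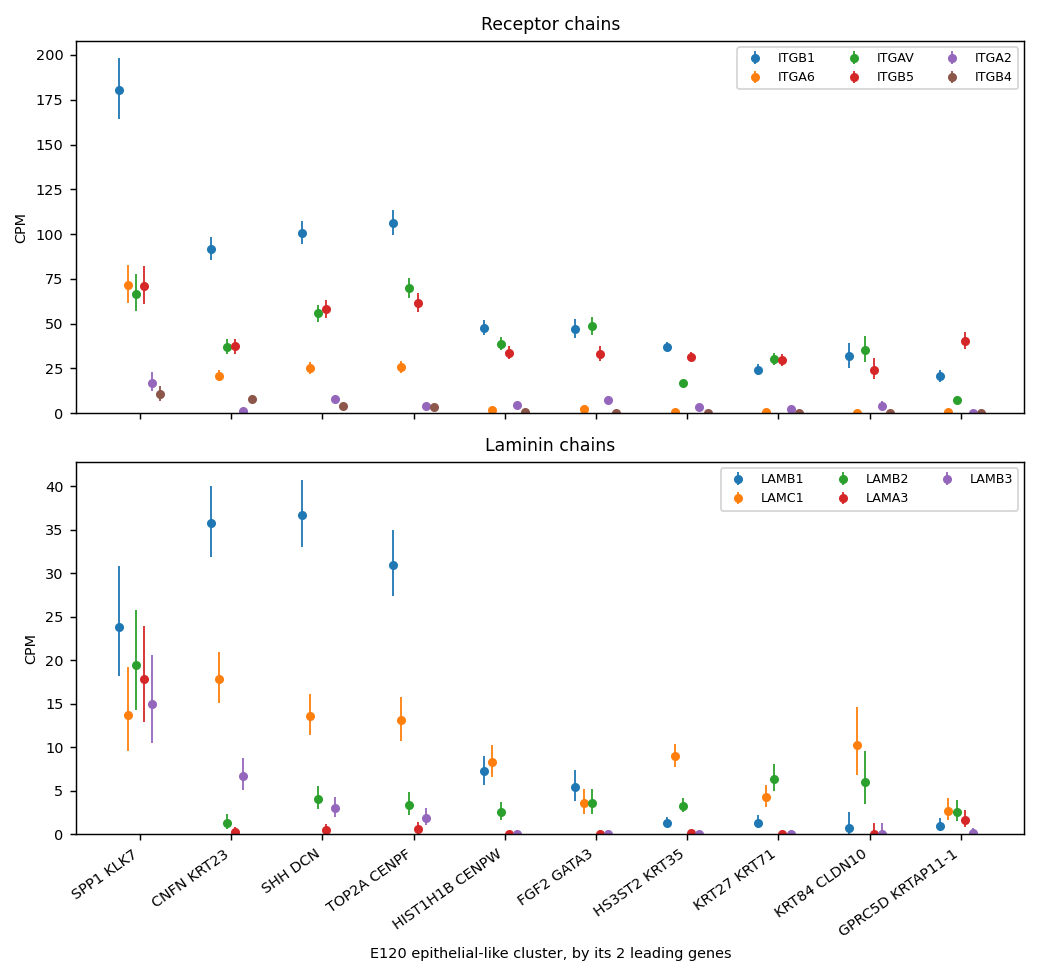
Level in CPM (vertical axis, from 0) of 6 integrin chains and 5 laminin chains in the 10 epithelial-like clusters of E120, each named by its 2 leading genes, with bars for the exact 95% Poisson interval. The cluster led by SPP1 and KLK7 has the highest ITGB1, ITGA6, LAMA3 and LAMB3 levels, and LAMB1 is instead highest in the cluster led by SHH and DCN.

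The 7 mesenchymal-like clusters of E60 differed in their receptors. ITGAV was at 228 CPM (217 to 239) in the cluster led by CCL11 and MFAP5 and at 229.7 CPM (213 to 248) in the tendon or cartilage-like cluster led by COL2A1 and THBS4, but at 51.6 CPM (46.0 to 57.5) in the cluster led by ISM1 and DKK1. ITGB5 ran opposite, at 69.4 CPM (63.5 to 75.8), 55.3 CPM (47.2 to 64.3) and 232 CPM in the same 3 clusters, and at 283 CPM (276 to 290.3) in the largest, led by FAM19A4 and CDC42EP3. The ISM1 and DKK1 cluster had instead the highest ITGA4, at 84.9 CPM (77.8 to 92.5), and the highest ITGA8, at 14.6 CPM (11.7 to 17.9), of the 7. ITGA2 was at 22.6 CPM (17.6 to 28.7) in the tendon or cartilage-like cluster and had no UMI in the CCL11 and MFAP5 cluster.

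Laminin chains were highest together in the CCL11 and MFAP5 cluster of 839 cells. LAMB1 was at 155 CPM there and at 55.2 CPM in the lowest cluster, LAMB2 at 99.2 CPM (92.1 to 107) against 18.2 CPM in the largest cluster, and LAMC1 at 38.4 CPM against 11.4 CPM in the lowest. LAMA4 was at 58.7 CPM in the CCL11 and MFAP5 cluster and 8.43 CPM in the ISM1 and DKK1 cluster, while LAMA2 was at 49.8 CPM in the CCL11 and MFAP5 cluster and at 49.3 CPM in the tendon or cartilage-like cluster. The stage comparisons of mesenchymal-like cells therefore set an average of unlike E60 clusters against 1 cluster of each later stage.

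**Figure D5:**
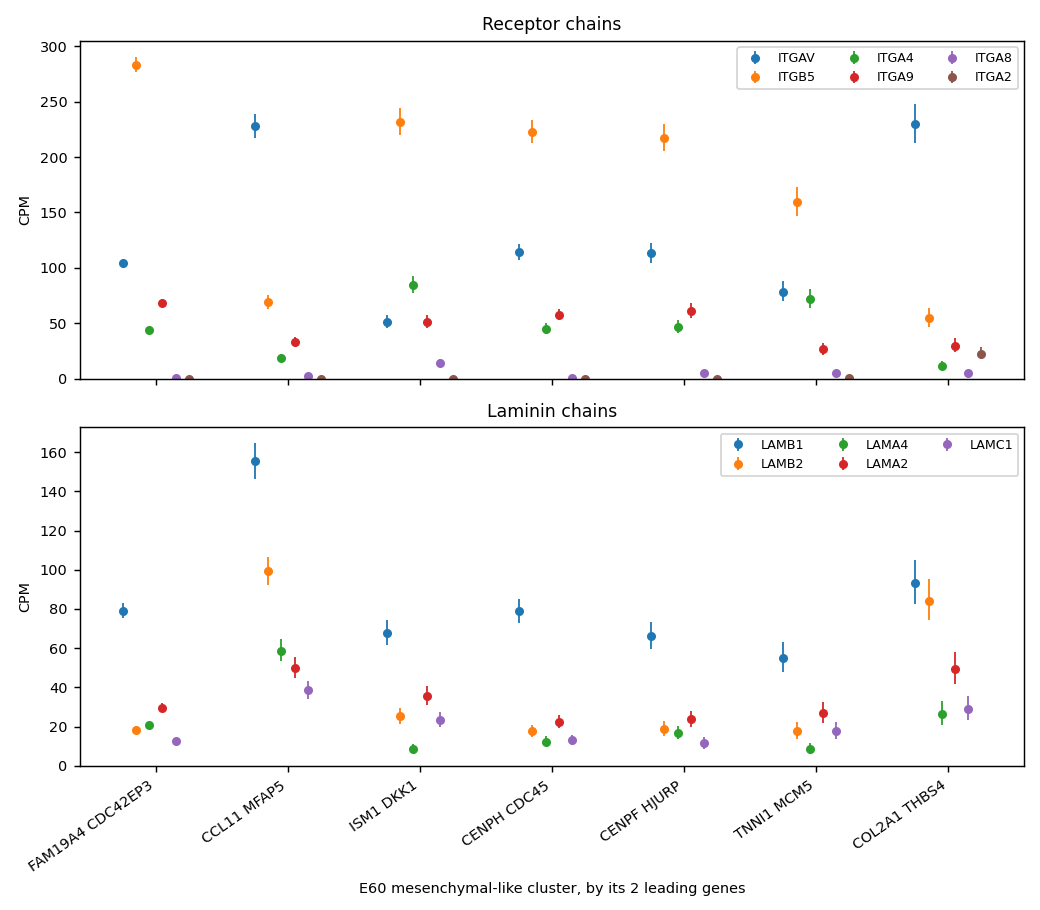
Level in CPM (vertical axis, from 0) of 6 integrin chains and 5 laminin chains in the 7 mesenchymal-like clusters of E60, with bars for the exact 95% Poisson interval. ITGAV is at 228 and 229.7 CPM in the CCL11 and tendon or cartilage-like clusters, where ITGB5 is at 69.4 and 55.3 CPM, and all 5 laminin chains are high in the CCL11 cluster.

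Known partner chains were ranked against one another over 37 groups of at least 50 cells, each the cells of 1 cluster in 1 library. These groups are not the 37 clusters themselves. Smaller groups were left out, and a cluster with enough cells in more than 1 library entered once for each. The ranking is a description, since the groups share libraries and depth. Spearman's rho was 0.92 for LAMA4 with LAMB1, 0.88 with LAMB2 and 0.88 with LAMC1, and lower for LAMA2 with the same chains, at 0.69, 0.64 and 0.61. The epithelial chains LAMA3 and LAMB3 had 0.62. Among receptors, ITGA8 with ITGB1 had 0.74, ITGAV with ITGB1 0.69 and with ITGB5 0.67, and ITGA6 with ITGB4 0.64. ITGA4 had 0.64 with ITGB1 but -0.40 with ITGB7, and ITGA10 with ITGB1 had -0.39. Other partners were close to unranked: ITGA2 and ITGA3 with ITGB1 had 0.09 and -0.06, and ITGAV with ITGB6 had -0.003. LAMA5 with LAMB1, LAMB2 and LAMC1 had -0.14, -0.12 and 0.05. The remaining receptor pairs lay between 0.17 and 0.58. Unrelated gene pairs were not ranked, so no level for them can be set beside these values.

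Other genes of the pathway were taken from 3 lists: 25 basement membrane genes (19 in the table), 13 other integrin ligands (10 in the table) and 17 genes of the adhesion machinery inside the cell (16 in the table). In mesenchymal-like cells, 8 basement membrane genes were higher at E90 than at E60 (8.95% of all genes) and none lower (1.77%), before the median-of-ratios shift of 0.86 that applies here too, among them NPNT, the nephronectin ligand of ITGA8, at a log2 ratio of 3.81, SMOC1 at 3.25 and DST, the hemidesmosome linker, at 3.15. Of the other ligands none was higher and 4 were lower, including TNC, tenascin, at -3.51 and POSTN, periostin, at -2.25. From E60 to E120 the same cells had 5 basement membrane genes higher (6.11% of all genes) and 1 other ligand higher, FN1 at 1.90, with 4 ligands lower (2.5%), led by SPP1 at -5.11 and TGFBI at -4.79. In epithelial-like cells no gene of the 3 lists was higher at E120 than at E90 (2.72% of all genes), and 8, 6 and 4 were lower (6.36%).

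Collagen IV, the other network of the basement membrane, also had genes higher in vascular classes than in mesenchymal-like cells. At E60 COL4A1 and COL4A2 were above mesenchymal-like cells in mural-like cells, at log2 ratios of 3.15 and 2.64, and in endothelial-like cells, at 3.63 and 2.52. At E120 they were above in mural-like cells at 3.91 and 3.27. Of the 19 basement membrane genes, E60 mural-like cells had 3 higher (1.8% of all genes) and 1 lower (1.12%). Those of E120 had 4 higher (3.79%) and 4 lower (4.05%). Endothelial-like cells had 4 higher (4.41%) and none lower (3.26%) at E60, and 7 higher (3.91%) and 2 lower (4.65%) at E120. Glial-like cells at E60 had 6 basement membrane genes higher (3.44% of all genes) and none lower (2.18%), led by NPNT at 6.01 and DST at 3.56. Mast-like cells at E120, where 5.34% of all genes were higher and 7.35% lower than in mesenchymal-like cells, had 1 basement membrane gene higher, the linker PLEC at 3.44, with 8 lower, and 1 adhesion gene higher, the blood-cell kindlin FERMT3 at 4.38, with 4 lower.

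The remaining 15 members stayed under 50 CPM in every class of at least 50 cells. ITGA10, a collagen receptor chain known from cartilage, lay between 13.7 and 41.3 CPM in all classes. LAMA3, LAMB3, ITGB6, ITGB2 and ITGB4 had their highest class levels at 22.1, 16.7, 14.8, 15.8 and 11.9 CPM, and the ITGB2 and ITGB4 values, both in E90 myeloid-like cells, rest on 4 and 3 UMIs. ITGA5, the fibronectin receptor chain, reached 11.9 CPM, ITGB8 11 CPM, ITGA11 9.84 CPM, LAMC3 9.23 CPM, ITGA3 6.93 CPM, LAMA5 2.72 CPM and ITGAE 0.686 CPM. LAMB4 was seen in E120 epithelial-like cells alone, with 11 UMIs. ITGB3, ITGAM, ITGAX, ITGAD and LAMA1 have no row under these symbols and were not analysed here.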

How the data were processed

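Back skin (E60, E90) and picked follicles (E120) were profiled with a 3′ droplet kit of version 3, 1 pooled library per stage, and Cell Ranger 3.0.2 is named in the submitters' processing notes. The genome build and gene annotation are not given in the sources used here. The authors deposited 1 table of 16739 genes by 20676 cells holding, from the values, the natural log of 1 plus UMIs scaled to 10000 per cell. The design text states 19705 cells, and how the other 971 were treated was not traced. The planned analysis assumed counts. UMI counts were therefore recovered from the natural log values, and 100% of the nonzero values came out whole within a tolerance of 0.01. Library totals were 65049552 (E60), 30277663 (E90) and 93403291 (E120) UMIs, and the libraries shared 9, 10 and 13 cell barcodes in pairs.

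All cells were kept. Clustering (Leiden, leidenalg 0.10.2, resolution 1, 2000 variable genes without the 33 members, 30 principal components, 20 neighbours) gave 37 clusters, of which 35 were named. A marker counted when at least 10% of a cluster's cells held it at 2 times or more the library's low-cluster level, and a name needed 3 markers. No doublets were removed, and removal of the 6% with the highest doublet scores was an alternative. UMIs were summed by library and class of at least 50 cells. No test was made, since no stage has a second library. Counts of calls are given for the 19 comparisons in which both sums reached 400000 UMIs, a limit set after the depths were seen. Alternatives covered cell filtering, class naming, 2 other cluster resolutions, doublets, scaling, cell weighting, pseudocount and minimum level.

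All 33 members enter the counts, 1 is not reported by name here, and those with at least 50 CPM in a class of at least 50 cells are described with values. Pathway genes are named when among the 3 largest or 3 smallest ratios of a comparison past the call rule. The members, lists and comparisons were chosen with earlier results of these data known. Scripts were tested on simulated data. Of the members, 32 matched a symbol in the RefSeq gene list of the goat. LAMB2 did not, and is named as in the table.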

Additional observations from a re-analysis of the deposited data

How the results depend on the processing

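Only member ratios called in the main setting, so past 2-fold with at least 20 CPM on the higher side, were recomputed. The settings also share most of their cells, so part of the agreement below is built in. Of 1073 such ratios under settings that can turn a direction (all but the minimum level and the pseudocount), 1069 kept it and 1006 stayed past 2-fold. Median-of-ratios scaling kept the direction of 165 of 165, with 145 past 2-fold. Of 179 recomputed counts, 161 lay within 1.5 times the main count. A minimum of 5 CPM, which lets more genes be called, gave 9 calls for whole libraries E90 over E60 (main 5), 17 for whole libraries E120 over E90 (main 10), 19 for epithelial-like cells E120 over E90 (main 10), 17 and 13 for mesenchymal-like cells E90 over E60 (main 9) and E120 over E90 (main 8), 2 and 6 for endothelial-like (main 1) and mural-like cells (main 3) E120 over E60, and 17 for epithelial-like over mesenchymal-like cells at E90 (main 9). Keeping cells of 1000 or more genes and no more than 10% mitochondrial counts gave 8 calls for whole libraries E90 over E60, and 10 of 17 members kept their highest class at E90. Equal weight per cell gave 5 calls for mesenchymal-like cells E120 over E90 and 2 for endothelial-like cells E120 over E60, for which removal of high doublet scores gave 3. Classing cells by their own markers gave 2 calls for endothelial-like cells E120 over E60, 5 and 7 for epithelial-like over mesenchymal-like cells at E90 and E120 (main 9 and 12), and the same highest class for 11 of 17 members at E60 and 11 of 17 at E90. It reversed LAMB2 in mesenchymal-like cells E120 over E60 to -0.19, ITGA4 and LAMA4 in mural-like cells E120 over E60 to -0.27 and -0.38, and ITGA9 in endothelial-like over mesenchymal-like cells at E120 to 0.30. For these the cause was not tested. Glial-like over mesenchymal-like cells could not be recomputed by own markers, since a class fell under 50 cells.

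No paired analysis was possible because each stage has 1 library. Depth limits the small classes: 3 UMIs equal 11.9 CPM in E90 myeloid-like, 10.2 CPM in E90 mast-like, 8.15 CPM in E90 endothelial-like and 7.07 CPM in E120 mural-like cells. Counting intervals hold no spread between fetuses.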
